A study of Sus scrofa with 14 samples.

Results

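Insulin-like growth factor 1 (IGF1), its receptor IGF1R and the IGF-binding proteins form a secreted signalling system, and 6 of the 8 genes listed for it were found by name among the 15031 rows of the expression table: *IGF1*, *IGF1R*, *IGFBP2*, *IGFBP4*, *IGFBP5* and *IGFBP7*. A row for *IGFBP6* carried only an Ensembl identifier (ENSSSCG00000000261) that a table of identifiers and symbols pairs with that gene, so its values are given separately and are in none of the counts of these 6 genes. *IGFBP3* was not analysed here. All 6 genes passed the detection filter, which asked for more than 0.5 TPM in 50% or more of a group's libraries, but *IGF1* passed through MPC-Dif alone, so its level in the other groups lay below the filter.

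IGF1 is a hormone and local growth factor that binds IGF1R, a receptor tyrosine kinase, which signals through the adaptors IRS1 and IRS2 to phosphatidylinositol 3-kinase (PI3K), AKT and mTOR. In skeletal muscle this pathway is known to promote differentiation and protein synthesis and to restrain FOXO transcription factors, which otherwise raise the ubiquitin ligases of muscle atrophy. Most IGF-binding proteins hold IGF1 and IGF2 away from the receptor and can also deliver them to it, and proteases such as HTRA1 and PAPPA free the growth factor by cutting the binding protein.

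RNA was sequenced from 14 libraries of wild-type pig cells in 5 groups. pgEpiSCs-high (passage 200, 3 libraries) and pgEpiSCs-Low (passage 30, 3 libraries) are untreated pre-gastrulation epiblast stem cells at day 0, kept on mouse embryonic fibroblast feeders. Their medium held N2, B27 and knockout serum replacement, with LIF, activin A, FGF2 and the inhibitors CHIR99021, IWR-1-endo and WH-4-023. pgEpiSCs-MPCs (day 8, 2 libraries) are muscle progenitor cells and pgEpiSCs-MCs (day 44, 3 libraries) muscle cells from a serum-free sequence of media with knockout serum replacement. It begins with B27, CHIR99021 and SB431542, goes on with CHIR99021, LDN193189 and FGF2, and then with HGF, IGF-1, FGF2 and LDN193189. After that come IGF-1 alone, HGF with IGF-1, and at the end an N2 medium without IGF-1. The study describes its progenitors in the medium with HGF, IGF-1, FGF2 and LDN193189, and its muscle cells after the N2 medium. MPC-Dif (3 libraries) are muscle stem cells from the dorsal muscle of pigs 1 week old, grown with fetal bovine serum and FGF2 and differentiated for 4 days in 2% horse serum. The media that contained IGF-1 held 10 ng/ml of the recombinant human protein, whereas IGF-1 is not listed as an additive for pgEpiSCs or MPC-Dif. The study's methods call the replicates biological but do not say which passage was differentiated, or whether libraries of 1 group came from separate cultures or animals, so p-values measure the spread between these libraries, which may be technical. The mouse feeders were present in the pgEpiSC cultures, and the part of their RNA in the libraries was not tested.

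Markers of the labelled cell types were present, although progenitor markers were not particular to the progenitors. The 5 pluripotency markers summed to 4727 to 5515 TPM in pgEpiSCs and 158 to 198 TPM in pgEpiSCs-MPCs. They summed to 97.5 to 133 TPM in pgEpiSCs-MCs and 0.086 to 0.374 TPM in MPC-Dif. *NANOG* averaged 244 and 218 TPM in pgEpiSCs-high and pgEpiSCs-Low and was listed at 0 in pgEpiSCs-MPCs. *SOX2* did not fall along the pgEpiSC lineage, at 74.5 and 84.0 TPM in pgEpiSCs-high and pgEpiSCs-Low. It averaged 89.4 TPM in pgEpiSCs-MPCs and 118 TPM in pgEpiSCs-MCs. The 7 differentiated skeletal muscle markers summed to 314 to 359 TPM in pgEpiSCs-MCs and 761 to 831 TPM in MPC-Dif, against 8.05 to 19.1 TPM in pgEpiSCs. *MYH3* and *DES* made up most of the sum in pgEpiSCs-MCs (123.6 and 124.2 TPM), and *DES* averaged 117.4 TPM in MPC-Dif. *ACTA1* did not rise after day 8, at 3.054 TPM in pgEpiSCs-MPCs and 1.433 TPM in pgEpiSCs-MCs, against 125.8 TPM in MPC-Dif. *CKM* and *TNNT3* averaged only 0.6563 and 1.985 TPM in pgEpiSCs-MCs. The 4 myogenic progenitor markers summed to 149 to 162 TPM in pgEpiSCs-MPCs and still to 167 to 194 TPM in pgEpiSCs-MCs, where *PAX3* averaged 114 TPM, against 0.303 to 4.36 TPM in pgEpiSCs, and to 9.41 to 12.1 TPM in MPC-Dif. *PAX3* also made up most of the progenitor sum in pgEpiSCs-MPCs, with a mean of 120 TPM. *MYF5* averaged 0.218 TPM in pgEpiSCs-MPCs, against 0.537 and 2.765 TPM in pgEpiSCs-high and pgEpiSCs-Low, and 48.1 TPM in pgEpiSCs-MCs. Summed markers of other cell types also differed between the groups. The 4 chondrocyte markers summed to 346 to 374 TPM in pgEpiSCs-MPCs and 120 to 125 TPM in pgEpiSCs-MCs. They summed to 12.9 to 23.0 TPM in pgEpiSCs and 5.41 to 7.04 TPM in MPC-Dif. *COL2A1* made up most of the sum in pgEpiSCs-MPCs (341 TPM) and *SOX9* in pgEpiSCs-MCs (113 TPM). *ACAN* averaged 0.0195 and 0.0397 TPM in pgEpiSCs-MPCs and pgEpiSCs-MCs, and *MATN1* was listed at 0 in both. The 9 fibroblast markers summed to 14654 to 15933 TPM in pgEpiSCs-MCs and 24546 to 25478 TPM in MPC-Dif, against 35.8 to 74.7 TPM in pgEpiSCs, with means above 0.5 TPM for 7 of 9 in pgEpiSCs-MCs and 9 of 9 in MPC-Dif. The collagens *COL1A1* and *COL1A2* made up most of these sums, whereas the more selective *DCN* averaged 15.2 TPM in pgEpiSCs-MCs and 2930 TPM in MPC-Dif, and *DPT* was listed at 0 in pgEpiSCs-MCs and averaged 36.3 TPM in MPC-Dif. The 6 mural markers summed to 5012 to 5163 TPM in pgEpiSCs-MCs and 4712 to 5742 TPM in MPC-Dif. They already summed to 1973 to 2059 TPM in pgEpiSCs-MPCs, against 28.3 to 63.4 TPM in pgEpiSCs. *ACTA2* and *TAGLN* made up most of these sums. *RGS5* averaged 0.0453 and 0.123 TPM in pgEpiSCs-high and pgEpiSCs-Low and 0.0945 TPM in pgEpiSCs-MPCs. It was lower in pgEpiSCs-MCs (0.141 TPM) than in MPC-Dif (23.9 TPM). *CNN1* and *MYH11* were instead higher in pgEpiSCs-MCs (84.8 and 8.44 TPM) than in MPC-Dif (6.08 and 0.638 TPM). The 5 neural markers in the table summed to 1713 to 1853 TPM in pgEpiSCs-MCs and 1315 to 1366 TPM in pgEpiSCs-MPCs. They summed to 227 to 291 TPM in pgEpiSCs and to 102 to 107 TPM in MPC-Dif. *ZIC1* made up most of the sum in pgEpiSCs-MPCs, with a mean of 1071 TPM. *TUBB3* went the other way on day 8, from 248 and 267 TPM in pgEpiSCs-high and pgEpiSCs-Low to 126 TPM in pgEpiSCs-MPCs. In such bulk RNA, fewer cells of a type and less RNA per cell cannot be told apart, and the part of these other cell types, and of cells still at the progenitor stage, in the differences below was not tested. Mitochondrial transcripts took 22.7 to 24.9% of TPM in pgEpiSCs-high, 19.8 to 23.3% in pgEpiSCs-Low, 15.8 to 17.1% in pgEpiSCs-MPCs, 6.07 to 6.61% in pgEpiSCs-MCs and 6.74 to 7.10% in MPC-Dif, which sets the scale of every other gene. Read depth is unknown, since the table holds TPM, the abundance of a transcript per length as a share of its library.

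The 6 genes are spread over the pig genome (Sscrofa11.1, RefSeq annotation). *IGF1* lies on the plus strand at chr5:81762027-81909253, *IGF1R* on the minus strand at chr1:137383623-137691038, *IGFBP4* on the minus strand at chr12:21966524-21980043 and *IGFBP7* on the minus strand at chr8:56283089-56357822. *IGFBP2* (plus strand, chr15:118822092-118850985) and *IGFBP5* (minus strand, chr15:118861816-118877787) are neighbours whose 3′ ends face each other across 10830 bases. The curated transcripts of *IGFBP2*, *IGFBP4* and *IGFBP5* have 4 exons each, that of *IGFBP7* 5 and that of *IGF1R* 21. The *IGFBP4* transcript consists of 780 bases of coding sequence without any untranslated region, and the gene models behind the TPM are not given in the sources used here, so levels of different genes depend on lengths that may be incomplete.

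Among the binding protein genes found by name, *IGFBP2* and *IGFBP7* were those whose annotated transcripts begin before the coding sequence, with leaders of 74 and 40 bases, and the 200 bases upstream of their starts (chr15:118821892-118822091, plus strand, and chr8:56357823-56358022, minus strand) are shown because the transcript levels of both genes were far higher in the muscle cells on day 44 than before differentiation. The sequences run 5′ to 3′ and end at the base before the annotated start, and capitals mark GGGCGG, the GC box bound by SP1-type factors, on either strand (CCGCCC when read on this strand).
IGFBP2: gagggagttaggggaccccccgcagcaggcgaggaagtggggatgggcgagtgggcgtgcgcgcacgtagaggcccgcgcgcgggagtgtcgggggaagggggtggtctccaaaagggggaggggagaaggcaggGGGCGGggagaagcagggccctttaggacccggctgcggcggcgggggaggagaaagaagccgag
IGFBP7: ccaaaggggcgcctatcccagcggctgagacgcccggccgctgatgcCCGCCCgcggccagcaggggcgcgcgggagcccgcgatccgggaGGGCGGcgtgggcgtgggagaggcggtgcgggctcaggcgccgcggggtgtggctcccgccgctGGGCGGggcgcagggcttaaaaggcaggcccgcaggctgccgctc
GGGCGG occurred 1 time upstream of *IGFBP2* and 3 times upstream of *IGFBP7*, and in 42.6% of 19556 pig promoter windows of the same length. TATAAA (the TATA box), CAGCTG (an E-box bound by MYOD in muscle) and TGANTCA (the AP-1 motif) were searched on both strands, do not overlap with GGGCGG and had no match in either window. TATAAA occurred in 7.9% of all windows, CAGCTG in 11.6% and TGANTCA in 4.23%. G and C made up 72.0% of the *IGFBP2* window and 79.5% of the *IGFBP7* window. The matches describe letters only, and no binding was measured. The annotated *IGFBP4* and *IGFBP5* transcripts begin at the start codon, so no window is shown for them.

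The binding protein genes were far more abundant in the day-44 muscle cells than in the stem cells, while *IGF1* itself was close to 0 TPM in every pgEpiSC-derived library (plot of the 7 genes by library). In pgEpiSCs-MCs against pgEpiSCs (the mean of both passages), 5 of the 6 genes were higher and 0 lower at a limma adjusted p below 0.05, beside 50.8% of all 14957 genes tested higher and 30.9% lower, and their median log2 fold change was 3.56 against 0.27 over all genes. In pgEpiSCs-MCs against pgEpiSCs-MPCs, 4 were higher and 0 lower (all genes 34.5% and 36.1%), with medians of 3.25 and -0.01. In MPC-Dif against pgEpiSCs, 4 were higher and 0 lower (37.4% and 44.1%), with medians of 2.63 and -0.10. In pgEpiSCs-MCs against MPC-Dif, 4 were higher and 1 lower (50.0% and 29.1%), with medians of 0.47 and 0.29. *IGF1* is 1 of the 4 higher in MPC-Dif against pgEpiSCs and is the 1 lower in pgEpiSCs-MCs against MPC-Dif, and since it passed the filter only through MPC-Dif, its part in these counts follows from the filter. In pgEpiSCs-MPCs against pgEpiSCs, 2 were higher and 2 lower (47.5% and 21.4%), with medians of 0.09 and 0.24. In pgEpiSCs-high against pgEpiSCs-Low, 2 were higher and 0 lower (8.36% and 15.7%), with medians of -0.04 and -0.04. The comparisons with pgEpiSCs share those libraries and are not independent. Since the median over all genes was as high as 0.29 and moved with the scaling, small differences are also given relative to that median below.

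**Figure D1:**
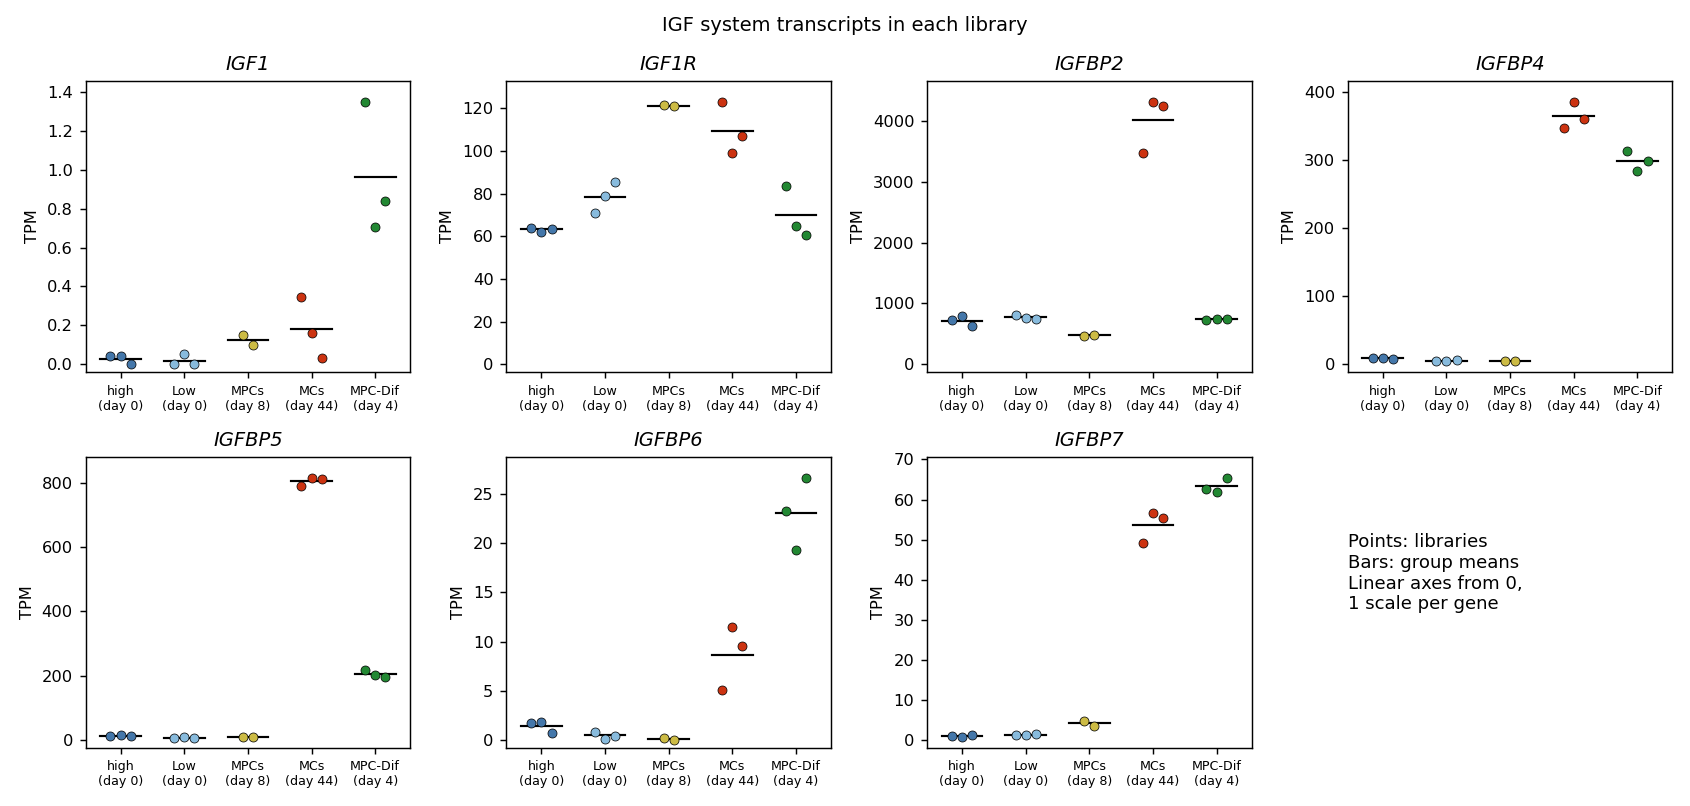
Level of *IGF1*, *IGF1R* and 5 IGF-binding protein genes in TPM (linear vertical axes, 1 scale per gene) in each library of pgEpiSCs-high, pgEpiSCs-Low, pgEpiSCs-MPCs, pgEpiSCs-MCs and MPC-Dif. Points are libraries and bars are group means. *IGFBP4*, *IGFBP5* and *IGFBP7* separate pgEpiSCs-MCs and MPC-Dif from the other groups, *IGFBP2* is highest in pgEpiSCs-MCs, where the libraries sit between 3477 and 4309 TPM, and *IGF1* exceeds 0.5 TPM only in MPC-Dif.

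*IGF1*, the ligand, was scarcely detected along the pgEpiSC lineage. It stood at 0.042, 0.044 and 0 TPM in pgEpiSCs-high and 0, 0.051 and 0 TPM in pgEpiSCs-Low at day 0, at 0.151 and 0.099 TPM in pgEpiSCs-MPCs on day 8, and at 0.344, 0.162 and 0.033 TPM in pgEpiSCs-MCs on day 44. MPC-Dif had 1.35, 0.708 and 0.84 TPM, and these 3 libraries were above all the others. The difference was 0.93 on the log2(TPM + 1) scale (SE 0.11) for MPC-Dif against pgEpiSCs and -0.73 (SE 0.13) for pgEpiSCs-MCs against MPC-Dif. Both values are descriptions, given without a p because *IGF1* passed the filter only through MPC-Dif. The added 1 understates the change of a gene at this level. In pgEpiSCs-MCs against pgEpiSCs the difference was 0.20 (95% interval -0.05 to 0.44, limma adjusted p = 0.124), and it passed the threshold without pgEpiSCs-MCs replicate 3 (0.29, adjusted p = 0.0468) and with an added 0.1 in place of 1 (1.05, adjusted p = 0.0207), while its sign turned after quantile normalization (-0.03). The pgEpiSCs-MPCs libraries lay above those of pgEpiSCs, by 0.14 (-0.15 to 0.42, adjusted p = 0.376), and this passed the threshold when only the compared groups were fitted (adjusted p = 0.0265). *IGF2*, the other ligand, was not analysed here.

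*IGF1R*, the receptor of IGF1, was abundant in every group and highest in the pgEpiSC-derived muscle lineage. It stood at 64.1, 62.0 and 63.5 TPM in pgEpiSCs-high and 70.8, 78.7 and 85.3 TPM in pgEpiSCs-Low, at 121 and 121 TPM in pgEpiSCs-MPCs, and at 123, 98.9 and 107 TPM in pgEpiSCs-MCs. MPC-Dif had 83.5, 64.9 and 60.8 TPM, which overlapped with pgEpiSCs. The libraries of pgEpiSCs-MPCs and pgEpiSCs-MCs were all above those of pgEpiSCs and MPC-Dif. The receptor transcript rose in pgEpiSCs-MPCs (0.78, SE 0.11, limma adjusted p = 1.66e-05) and pgEpiSCs-MCs (0.63, SE 0.093, adjusted p = 2.1e-05) against pgEpiSCs, or by 0.54 and 0.36 relative to the median of all genes. It was 0.65 higher (SE 0.11, adjusted p = 6.57e-05) in pgEpiSCs-MCs than in MPC-Dif, or 0.36 relative to the median. pgEpiSCs-MCs and pgEpiSCs-MPCs overlapped (-0.15, 95% interval -0.41 to 0.11, adjusted p = 0.277), and the difference passed the threshold with mitochondrial genes left out of the scaling (-0.32, adjusted p = 0.0281). MPC-Dif and pgEpiSCs differed by -0.02 (-0.22 to 0.18, adjusted p = 0.832), but by -0.29 (adjusted p = 0.00931) without mitochondrial genes, by -0.20 (adjusted p = 0.0488) without the 100 most abundant genes and by 0.10 with median-of-ratios scaling. pgEpiSCs-high lay below pgEpiSCs-Low in all 3 libraries (-0.30, SE 0.11), a difference that missed the threshold (adjusted p = 0.0579) and passed it without pgEpiSCs-Low replicate 1 (-0.37, adjusted p = 0.0433), without pgEpiSCs-MCs replicate 1 (adjusted p = 0.0495), and without MPC-Dif replicate 1 or 3 (0.0181 and 0.0465).

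The other receptor genes described here followed other courses. *IGF2R*, which carries IGF2 to lysosomes, averaged 173 ± 9.94 TPM in pgEpiSCs-MCs and 222 ± 23.1 TPM in MPC-Dif, against 59.2 ± 6.36 TPM in pgEpiSCs-high and 76.8 ± 2.30 TPM in pgEpiSCs-Low (SD, n = 3 each). It rose by 1.35 (SE 0.074, limma adjusted p = 4.09e-10) in pgEpiSCs-MCs and 1.70 (SE 0.074, adjusted p = 2.25e-11) in MPC-Dif against pgEpiSCs, and pgEpiSCs-MCs were 0.35 below MPC-Dif (-0.35, adjusted p = 0.00198). *INSR*, the insulin receptor, had 7.33 to 9.21 TPM in pgEpiSCs-MCs and 10.2 to 15.3 TPM in MPC-Dif, against 8.17 to 12.2 TPM in pgEpiSCs, and was lower in pgEpiSCs-MCs than in MPC-Dif (-0.53, SE 0.15, adjusted p = 0.00577). The ratio of *IGF1R* to *INSR* TPM was 11.6 to 15.3 in pgEpiSCs-MCs and 5.46 to 5.94 in MPC-Dif, with 8.92 to 9.81 in pgEpiSCs-MPCs and 5.21 to 8.69 in pgEpiSCs. *GHR*, the growth hormone receptor, through which growth hormone raises *IGF1* in liver and muscle, averaged 5.98 ± 1.14 TPM in MPC-Dif and 2.58 ± 0.627 TPM in pgEpiSCs-MCs (SD, n = 3 each), against 0.059 to 0.653 TPM in pgEpiSCs.

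*IGFBP2*, which binds IGF1 and IGF2 and is abundant in fetal tissue, was in every library the most abundant of the binding protein transcripts analysed here. It stood at 733, 785 and 632 TPM in pgEpiSCs-high and 806, 759 and 742 TPM in pgEpiSCs-Low, at 459 and 484 TPM in pgEpiSCs-MPCs, and at 3477, 4309 and 4247 TPM in pgEpiSCs-MCs. MPC-Dif had 732, 742 and 745 TPM, inside the range of pgEpiSCs. The pgEpiSCs-MCs libraries were above all the others without overlap, and the gene ranked 22 of 15031 by mean TPM there, against 164 in MPC-Dif. It rose by 2.43 (SE 0.073, limma adjusted p = 5.39e-13) in pgEpiSCs-MCs against pgEpiSCs, by 3.08 (SE 0.094, adjusted p = 3.26e-12) against pgEpiSCs-MPCs and by 2.43 (SE 0.084, adjusted p = 2.98e-12) against MPC-Dif. The level fell by 0.65 in pgEpiSCs-MPCs against pgEpiSCs (-0.65, SE 0.084, adjusted p = 8.86e-06), without overlap. In MPC-Dif against pgEpiSCs the difference was 0.00 (95% interval -0.16 to 0.16, adjusted p = 0.995), but it depended on the scaling and was -0.27 with mitochondrial genes left out (adjusted p = 0.0025), -0.22 after quantile normalization (0.00227), -0.18 with the 100 most abundant genes left out (0.0297) and 0.12 with median-of-ratios scaling.

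*IGFBP4*, which inhibits IGF action until it is cut by PAPPA, went from a low transcript to an abundant one in both kinds of muscle cell. It had 347, 386 and 361 TPM in pgEpiSCs-MCs and 313, 284 and 299.6 TPM in MPC-Dif, against 9.05, 8.34 and 8.26 TPM in pgEpiSCs-high and 5.33, 4.21 and 6.08 TPM in pgEpiSCs-Low. The rise over pgEpiSCs was 5.57 (SE 0.083, limma adjusted p = 5.6e-16) in pgEpiSCs-MCs and 5.29 (SE 0.083, adjusted p = 4.06e-16) in MPC-Dif, and the 2 groups of muscle cells shared no level with any other group. pgEpiSCs-MCs were above MPC-Dif in every library (0.29, SE 0.096, adjusted p = 0.0142), yet the same difference was -0.01 relative to the median of all genes. That call was lost with the 100 most abundant genes left out (0.20, adjusted p = 0.0651), without pgEpiSCs-MCs replicate 2 (0.24, adjusted p = 0.0593) and without MPC-Dif replicate 2 (0.25, adjusted p = 0.0561), and its direction turned with median-of-ratios scaling (-0.07, adjusted p = 0.499).

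pgEpiSCs-MPCs had 4.76 and 4.23 TPM of *IGFBP4*, so the gene had not risen by day 8. Against both passages together the level fell by 0.48 (-0.48, SE 0.096, limma adjusted p = 4.75e-04), with overlapping libraries. It was lower than in pgEpiSCs-high but within the range of pgEpiSCs-Low, and against pgEpiSCs-Low alone the difference was -0.17 (adjusted p = 0.194). From there to day 44 the difference was 6.06 (SE 0.11, adjusted p = 2.45e-14) for pgEpiSCs-MCs against pgEpiSCs-MPCs.

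*IGFBP5*, the binding protein best known from differentiating myoblasts in mouse, showed the largest rise of the 6 genes in pgEpiSCs-MCs. It had 789.7, 817 and 813 TPM in pgEpiSCs-MCs and 217, 202 and 197 TPM in MPC-Dif, against 10.7, 14.7 and 11.5 TPM in pgEpiSCs-high and 5.81, 7.47 and 7.36 TPM in pgEpiSCs-Low. The differences from pgEpiSCs were 6.31 (SE 0.090, limma adjusted p = 4.07e-16) in pgEpiSCs-MCs and 4.34 (SE 0.090, adjusted p = 5.62e-15) in MPC-Dif. pgEpiSCs-MCs exceeded MPC-Dif by 1.97 (SE 0.10, adjusted p = 3.05e-10), or 1.68 relative to the median, a ratio of 3.93 between mean TPM. pgEpiSCs-MPCs had 9.50 and 9.48 TPM, between the passages of pgEpiSCs. Their difference from both passages together was 0.04 (95% interval -0.18 to 0.27, adjusted p = 0.727), and it was 0.42 (adjusted p = 0.00574) against pgEpiSCs-Low alone, -0.33 (adjusted p = 0.0213) against pgEpiSCs-high alone, -0.24 (adjusted p = 0.049) with median-of-ratios scaling and -0.43 (adjusted p = 0.00157) after quantile normalization, so no direction can be given for day 8.

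*IGFBP4* and *IGFBP5* were also the genes of the system that differed between passages. *IGFBP4* was 0.63 higher in pgEpiSCs-high than in pgEpiSCs-Low (SE 0.096, limma adjusted p = 3.58e-04) and *IGFBP5* 0.75 higher (SE 0.10, adjusted p = 1.68e-04), with mean ratios of 1.64 and 1.79 and no overlap for either gene. Both calls held under each of the 25 alternatives run, with differences of 0.51 to 0.73 for *IGFBP4* and 0.62 to 0.84 for *IGFBP5*. *IGFBP2* and *IGFBP7* overlapped between passages (-0.11, adjusted p = 0.405, and -0.20, adjusted p = 0.306).

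*IGFBP7*, a secreted matrix protein that binds IGFs only weakly, rose in steps. It had 1.06, 0.669 and 1.21 TPM in pgEpiSCs-high and 1.11, 1.13 and 1.55 TPM in pgEpiSCs-Low, 4.81 and 3.50 TPM in pgEpiSCs-MPCs, and 49.2, 56.8 and 55.3 TPM in pgEpiSCs-MCs. MPC-Dif had 62.5, 62.0 and 65.5 TPM. Neither the day-8 nor the day-44 libraries overlapped with any earlier time. The rise was 1.28 (SE 0.13, limma adjusted p = 7.14e-07) in pgEpiSCs-MPCs, 4.70 (SE 0.11, adjusted p = 5.06e-14) in pgEpiSCs-MCs and 4.93 (SE 0.11, adjusted p = 1.48e-14) in MPC-Dif, each against pgEpiSCs, and 3.42 (SE 0.15, adjusted p = 7.96e-11) in pgEpiSCs-MCs against pgEpiSCs-MPCs. The sum of the mural markers given above moved with the day-8 step, although *RGS5* did not, and their part in it was not tested. *IGFBP7* was the only binding protein gene of the 6 whose libraries were all lower in pgEpiSCs-MCs than in MPC-Dif (-0.24, SE 0.13). That difference missed the threshold (adjusted p = 0.11) and passed it with median-of-ratios scaling (-0.59, adjusted p = 0.00103), after quantile normalization (-0.35, adjusted p = 0.0414) and when only the compared groups were fitted (adjusted p = 0.0136).

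*IGFBP6*, which prefers IGF2 to IGF1, was low in pgEpiSCs and pgEpiSCs-MPCs and higher in pgEpiSCs-MCs and MPC-Dif (the row identified through its Ensembl identifier). It had 5.06, 11.4 and 9.55 TPM in pgEpiSCs-MCs and 23.3, 19.3 and 26.7 TPM in MPC-Dif, against 1.69, 1.85 and 0.701 TPM in pgEpiSCs-high and 0.824, 0.128 and 0.39 TPM in pgEpiSCs-Low. It rose by 2.34 (SE 0.23, limma adjusted p = 3.13e-07) in pgEpiSCs-MCs and 3.71 (SE 0.23, adjusted p = 1.42e-09) in MPC-Dif against pgEpiSCs, and was 1.37 lower in pgEpiSCs-MCs than in MPC-Dif (-1.37, SE 0.27, adjusted p = 3.18e-04), with no overlap. pgEpiSCs-MPCs had 0.189 and 0 TPM, and their call as lower than pgEpiSCs (-0.75, adjusted p = 0.0237) was lost without pgEpiSCs-MPCs replicate 1 (-0.87, adjusted p = 0.0601), without replicate 2 (-0.62, adjusted p = 0.171) and against pgEpiSCs-Low alone (-0.38, adjusted p = 0.287). The passages differed by 0.73 with overlapping libraries (adjusted p = 0.0642), and this passed the threshold in 7 of 25 alternatives, among them an added 0.1 in place of 1 (1.59, adjusted p = 0.0499), the 100 most abundant genes left out (0.97, adjusted p = 0.04) and the fits without pgEpiSCs-high replicate 3 (0.97, adjusted p = 0.0264), pgEpiSCs-Low replicate 1 (0.91, adjusted p = 0.0448) or pgEpiSCs-MCs replicate 1 (adjusted p = 0.0306).

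**Figure D2:**
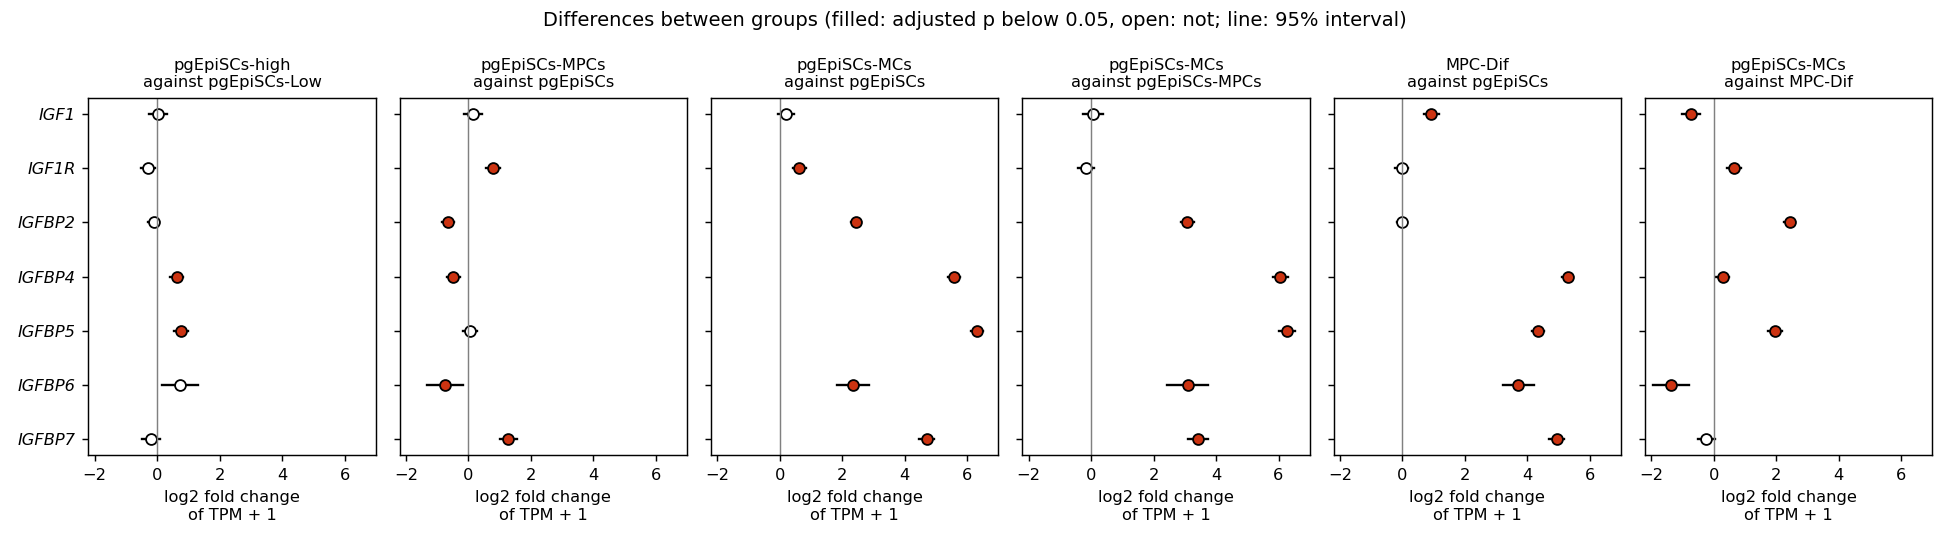
Log2 fold change of TPM + 1 (horizontal axes) of the 7 genes in the 6 comparisons, each panel titled with its groups. Points are limma estimates, filled where the adjusted p is below 0.05, and lines are 95% intervals. In pgEpiSCs-MCs against pgEpiSCs, *IGFBP4*, *IGFBP5* and *IGFBP7* lie between 4.70 and 6.31, whereas *IGF1* and *IGF1R* lie at 0.20 and 0.63. *IGF1* passed the filter only through MPC-Dif, so its filled points are descriptions.

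The binding protein transcripts as a whole were both more abundant and more mixed in the muscle cells. The summed level of *IGFBP2*, *IGFBP4*, *IGFBP5*, *IGFBP6* and *IGFBP7* was 5244 ± 501 TPM in pgEpiSCs-MCs and 1330.5 ± 19.4 TPM in MPC-Dif, against 740.05 ± 79.6 TPM in pgEpiSCs-high and 783 ± 32.0 TPM in pgEpiSCs-Low (SD, n = 3 each), and 478 and 501 TPM in the 2 libraries of pgEpiSCs-MPCs. *IGFBP2* made up 76.4 ± 1.64% of the sum in pgEpiSCs-MCs and 55.6 ± 1.19% in MPC-Dif, against 96.9 ± 0.170% in pgEpiSCs-high and 98.2 ± 0.232% in pgEpiSCs-Low (SD, n = 3 each). The share of *IGFBP5* overlapped between the muscle groups, at 14.6 to 16.9% in pgEpiSCs-MCs and 14.7 to 16.1% in MPC-Dif, while that of *IGFBP4* was 6.58 to 7.43% in pgEpiSCs-MCs and 21.7 to 23.2% in MPC-Dif. The ratio of *IGFBP5* to *IGFBP4* TPM, which does not depend on the scaling of a library, was 2.12 to 2.28 in pgEpiSCs-MCs, 0.657 to 0.711 in MPC-Dif, 2.00 and 2.24 in pgEpiSCs-MPCs and 1.09 to 1.77 in pgEpiSCs. The ratio thus differed between the muscle groups in every library, with the TPM of *IGFBP5* above that of *IGFBP4* in pgEpiSCs-MCs and below it in MPC-Dif. Which gene stands above within a library also depends on the gene lengths behind the TPM, which are not given. Shares and ratios are given as descriptions, since 3 libraries against 3 allow no small exact p.

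**Figure D3:**
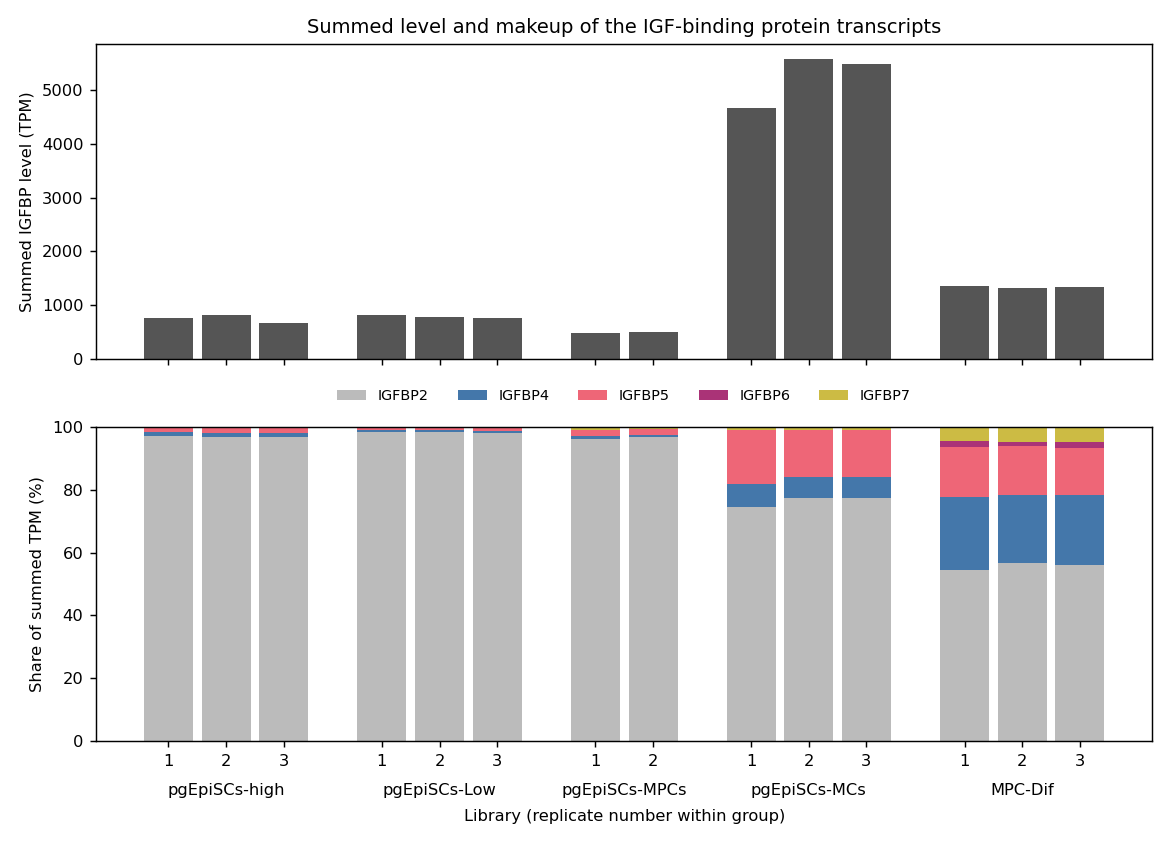
Summed level in TPM of 5 IGF-binding protein genes (upper bars, axis from 0) and the share of each gene in that sum in percent (lower stacked bars), for each library by group and replicate number. pgEpiSCs-MCs have the tallest bars (4668 to 5580 TPM), and MPC-Dif have the largest share of *IGFBP4* (21.7 to 23.2%).

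Among the 7 genes of binding partners and proteases in the table (9 listed, and *IGFBP1* and *PAPPA2* were not analysed here), 7 were higher in pgEpiSCs-MCs than in pgEpiSCs, beside 50.8% of all genes, with a median of 2.63 against 0.27 over all genes. In MPC-Dif against pgEpiSCs, 4 were higher and 3 lower, beside 37.4% and 44.1% of all genes, with medians of 0.35 and -0.10. *PAPPA* passed the filter only through pgEpiSCs-MCs and MPC-Dif, so its place among the higher genes in both comparisons follows from the filter. *HTRA1*, a secreted serine protease that cuts IGFBP5 and other substrates, had 1332, 1354 and 1253 TPM in pgEpiSCs-MCs and 2689, 2937 and 2995 TPM in MPC-Dif, against 18.2, 19.8 and 20.5 TPM in pgEpiSCs-high and 8.95, 9.02 and 7.62 TPM in pgEpiSCs-Low. It differed between pgEpiSCs-MCs and MPC-Dif by -1.13 (SE 0.071, limma adjusted p = 2.2e-09), the opposite direction to *IGFBP5*, and pgEpiSCs-high exceeded pgEpiSCs-Low by 1.11 (SE 0.071, adjusted p = 1.67e-07). *PAPPA*, the metalloprotease that cuts IGFBP4, had 8.13, 7.70 and 7.02 TPM in pgEpiSCs-MCs and 81.2, 44.9 and 44.0 TPM in MPC-Dif, so that pgEpiSCs-MCs were lower by 2.69 on the log2 scale (-2.69, SE 0.21, adjusted p = 2.13e-08).

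The stanniocalcins, which inhibit PAPPA, ran the other way between pgEpiSCs-MCs and MPC-Dif. *STC1* had 160.3, 144 and 146 TPM in pgEpiSCs-MCs and 0.12, 0.404 and 0.325 TPM in MPC-Dif, a difference of 6.88 (SE 0.23, limma adjusted p = 2.28e-12), and *STC2* had 302 to 310.04 TPM in pgEpiSCs-MCs and 66.5 to 68.4 TPM in MPC-Dif, a difference of 2.16 (SE 0.091, adjusted p = 2.59e-11). Both were also higher in pgEpiSCs-high than in pgEpiSCs-Low (0.94, adjusted p = 0.00985, and 0.93, adjusted p = 9.52e-06). *IGFBPL1*, an IGFBP-like gene, had 97.5 and 112 TPM in pgEpiSCs-MPCs and 109.6, 107 and 118 TPM in pgEpiSCs-MCs, against 7.56 to 10.6 TPM in pgEpiSCs, and was listed at 0 in the 3 MPC-Dif libraries. It rose by 3.41 (SE 0.11, adjusted p = 2.24e-12) in pgEpiSCs-MPCs against pgEpiSCs. The sum of the neural markers above moved with the same groups, although single markers did not all do so. *TUBB3* fell on day 8. *PAX6* and *ZIC1* were higher in MPC-Dif (24.2 and 75.6 TPM) than in pgEpiSCs-high (0.149 and 0 TPM) and pgEpiSCs-Low (0 and 0.121 TPM). *TUBB3*, *STMN2* and *ELAVL4* were lower in MPC-Dif than in pgEpiSCs. The part of neural cells in the course of *IGFBPL1* was not tested.

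**Figure D4:**
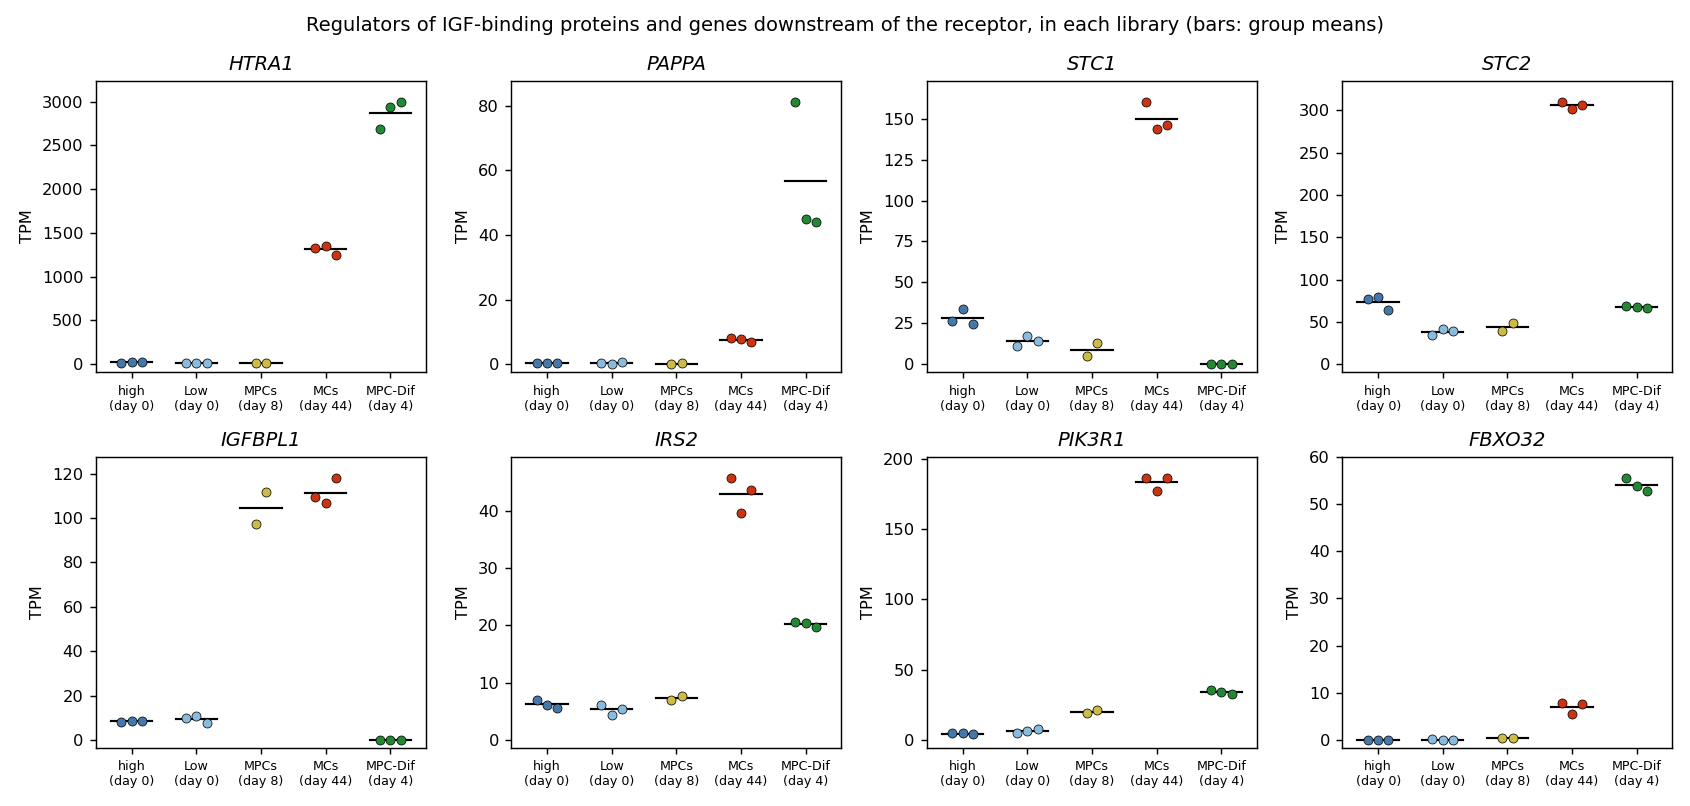
Level in TPM (linear vertical axes, 1 scale per gene) of *HTRA1*, *PAPPA*, *STC1*, *STC2*, *IGFBPL1*, *IRS2*, *PIK3R1* and *FBXO32* in each library of the 5 groups. Points are libraries and bars are group means. *HTRA1*, *PAPPA* and *FBXO32* are highest in MPC-Dif, *STC1*, *STC2*, *IRS2* and *PIK3R1* are highest in pgEpiSCs-MCs, and *IGFBPL1* is high in pgEpiSCs-MPCs and pgEpiSCs-MCs and listed at 0 in MPC-Dif.

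Downstream of the receptor, the adaptors and PI3K subunits divided by gene. Of 8 adaptors, 5 were higher and 3 lower in pgEpiSCs-MPCs, 4 higher and 3 lower in pgEpiSCs-MCs, and 5 higher and 2 lower in MPC-Dif, each against pgEpiSCs. The shares of all genes called higher and lower were 47.5% and 21.4% for pgEpiSCs-MPCs, 50.8% and 30.9% for pgEpiSCs-MCs, and 37.4% and 44.1% for MPC-Dif, and the 4 of 8 higher in pgEpiSCs-MCs are near that share. *IRS1* averaged 28.2 ± 1.33 TPM in pgEpiSCs-MCs and 13.5 ± 1.49 TPM in MPC-Dif, against 7.24 ± 0.816 TPM in pgEpiSCs-high and 8.21 ± 0.950 TPM in pgEpiSCs-Low (SD, n = 3 each), and it had already reached 28.5 and 29.9 TPM in pgEpiSCs-MPCs (1.80, SE 0.11, limma adjusted p = 2.18e-09). *IRS2* had 45.8, 39.7 and 43.6 TPM in pgEpiSCs-MCs and 20.6, 20.5 and 19.8 TPM in MPC-Dif, against 4.43 to 7.05 TPM in pgEpiSCs. It rose by 2.71 (SE 0.096, adjusted p = 3.1e-12) in pgEpiSCs-MCs against pgEpiSCs. On day 8 it had 6.92 and 7.71 TPM in pgEpiSCs-MPCs and was called higher than in pgEpiSCs (0.30, adjusted p = 0.025), a call that was lost in 7 of 27 alternatives, among them the fit without pgEpiSCs-MPCs replicate 2 (0.24, adjusted p = 0.192) and quantile normalization, which turned its direction (-0.15). *GAB1*, a docking protein, rose by 2.45 to 2.54 in all 3 comparisons with pgEpiSCs.

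Of 15 genes of the PI3K, AKT and mTOR list in the table, 12 were higher and 1 lower in pgEpiSCs-MPCs, 8 higher and 3 lower in pgEpiSCs-MCs, and 8 higher and 5 lower in MPC-Dif, each against pgEpiSCs, with medians of 0.41, 0.41 and 0.32 beside 0.24, 0.27 and -0.10 over all genes. The shares over all genes are those given for the adaptors, and the 8 of 15 higher in pgEpiSCs-MCs are near the 50.8% of all genes. *PIK3R1*, which encodes the p85 regulatory subunit of PI3K, had 187, 177 and 187 TPM in pgEpiSCs-MCs and 35.4, 34.3 and 32.8 TPM in MPC-Dif, against 4.05 to 7.63 TPM in pgEpiSCs. Its rise was 4.87 (SE 0.089, limma adjusted p = 3.76e-15) in pgEpiSCs-MCs and 2.48 (SE 0.089, adjusted p = 2.38e-12) in MPC-Dif. The related regulatory subunit *PIK3R3* was highest on day 8, at 68.8 and 71.7 TPM in pgEpiSCs-MPCs, with 32.0 ± 1.85 TPM in pgEpiSCs-MCs and 1.38 ± 0.148 TPM in MPC-Dif (SD, n = 3 each). *EIF4EBP1*, the translation repressor that mTOR inactivates, was the gene of the list that fell in pgEpiSCs-MPCs (-2.49, SE 0.11, adjusted p = 1.53e-10) and was higher than in pgEpiSCs in both muscle groups (0.81 in pgEpiSCs-MCs and 1.09 in MPC-Dif).

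Against pgEpiSCs, 4 of the 5 FOXO and atrophy genes were higher and 1, *FOXO1*, lower in pgEpiSCs-MCs, beside 50.8% and 30.9% of all genes. All 5 were higher in pgEpiSCs-MCs than in pgEpiSCs-MPCs, beside 34.5% of all genes, and 3 of them were lower in pgEpiSCs-MCs than in MPC-Dif, beside 29.1% of all genes. *TRIM63* passed the filter only through MPC-Dif and *FBXO32* only through pgEpiSCs-MCs and MPC-Dif, so the place of *FBXO32* among genes higher in pgEpiSCs-MCs and of *TRIM63* among those lower than in MPC-Dif follows from the filter. The call of *TRIM63* in pgEpiSCs-MCs against pgEpiSCs-MPCs (0.64) was lost after quantile normalization (0.26, limma adjusted p = 0.0728). *FOXO1* had 18.8, 19.2 and 17.8 TPM in pgEpiSCs-MCs and 65.0, 65.5 and 62.6 TPM in MPC-Dif (-1.74, SE 0.066, limma adjusted p = 8.24e-12), and 3.42 and 3.22 TPM in pgEpiSCs-MPCs, against 32.1, 32.3 and 36.6 TPM in pgEpiSCs-high and 60.4, 64.0 and 63.5 TPM in pgEpiSCs-Low. It was thus lower than in pgEpiSCs both in pgEpiSCs-MPCs (-3.44, SE 0.066, adjusted p = 2.26e-14) and in pgEpiSCs-MCs (-1.26, SE 0.057, adjusted p = 4.81e-11). *FBXO32*, the muscle ubiquitin ligase atrogin-1, had 7.76, 5.40 and 7.64 TPM in pgEpiSCs-MCs and 55.6, 53.9 and 52.9 TPM in MPC-Dif (-2.81, SE 0.12, adjusted p = 3.28e-11). *TRIM63*, which encodes MuRF1, had 0.953, 0.379 and 0.418 TPM in pgEpiSCs-MCs and 35.1, 35.9 and 36.2 TPM in MPC-Dif (-4.55, SE 0.13, a description with no p), and was listed at 0 in every library of pgEpiSCs-MPCs and pgEpiSCs. The differentiated muscle markers also summed to less in pgEpiSCs-MCs than in MPC-Dif, although *DES* was not lower. The part of these markers in the differences was not tested.

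The 3 IGF2 mRNA-binding protein genes fell in MPC-Dif against pgEpiSCs, beside 44.1% of all genes, with a median of -2.15 against -0.10 over all genes. *IGF2BP1*, a fetal RNA-binding protein, had 66.0, 53.5 and 72.1 TPM in pgEpiSCs-MCs and 0.809, 0.775 and 1.46 TPM in MPC-Dif, against 206 to 242 TPM in pgEpiSCs. It fell by 1.79 in pgEpiSCs-MCs (-1.79, SE 0.11, limma adjusted p = 1.23e-09) and further in MPC-Dif (-6.80, SE 0.11, adjusted p = 4.73e-16), each against pgEpiSCs.

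Genes with the most similar course over the 5 groups were picked by the root mean square difference between centred group means of log2(TPM + 1), among 13366 named genes. For *IGFBP5* these included *INHBB* (0.35), with 55.1 TPM in pgEpiSCs-MCs and 24.7 TPM in MPC-Dif. *IGFBP4* was nearest to *INHBB* (0.43) and the myosin gene *MYH8* (0.45), and the distance between *IGFBP4* and *IGFBP5* was 0.58, the shortest between binding protein genes. In pgEpiSCs and pgEpiSCs-MPCs the group means of *INHBB* and *MYH8* were 0 to 0.075 TPM, where the added 1 sets the value. *IGFBP4* averaged 4.50 to 8.55 TPM and *IGFBP5* 6.88 to 12.3 TPM in the same groups. *IGFBP2* was nearest to *NFATC2* (0.14) and *NDUFA4L2* (0.21), *IGFBP7* to *PARP3* (0.25) and *TMEM61* (0.28), *IGFBP6* to *ADAMTS1* (0.24) and *MYO1D* (0.25), *IGF1R* to *HIPK1* (0.03) and *KIF1B* (0.05), and *IGF1* to *MYH15* (0.03) and *IL1R2* (0.04), the last at levels near 0. *IGFBP2* and *IGFBP5*, although adjacent on chromosome 15, were 1.94 apart. The distances rest on 5 group means and are descriptions.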

How the data were processed

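Polyadenylated RNA was sequenced as paired-end reads in 14 libraries. Per the labels and the study's methods, the authors trimmed reads with Trim Galore, mapped them to Sscrofa11.1 with HISAT2, counted them in exons with featureCounts and calculated TPM, the unit of the deposited table. The annotation and the strand setting are not given in the sources used here. No read counts were used, so the study's count test could not be run and read depth is unknown, which leaves the spread between libraries as the measure of precision.

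After the transformation log2(TPM + 1), limma 3.58.1 (R 4.3.3) estimated 1 mean per group over all 5 groups, and variances were moderated along the intensity trend. Genes entered the fit with TPM over 0.5 in 50% or more of a group's libraries, and a gene was called at a Benjamini-Hochberg adjusted p below 0.05 over 14957 genes. pgEpiSCs stands for both passages, weighted equally. Of 2209 rows named by identifier, 608 were given a symbol. The genes described, the pathway lists and the marker lists were chosen with earlier results of these data known. Named pathway genes are *IGF2R*, *INSR*, *IRS1*, *IRS2* and, per list and comparison, up to 4 called genes with the largest change, and the text gives a part of these. Sequences and coordinates come from RefSeq on the same build, and promoter windows were taken as 1 per protein-coding gene. The fit was tested on simulated data. Alternatives were the pseudocount, the filter, scaling, a replicate block, the groups fitted, 1 passage alone as pgEpiSCs, and leaving out each library. Some results on single genes are not reported here.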

Additional observations from a re-analysis of the deposited data

How the results depend on the processing

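Over 174 gene results and 27 settings, 4381 of 4519 tested values kept their side of the threshold and, where they had passed it, their direction, 93 lost the threshold, 34 gained it and 11 turned direction with a call on either side. Of these 11, in pgEpiSCs-MPCs against pgEpiSCs there were, with median-of-ratios scaling, *IGFBP5* (-0.2378) and *IGF2BP3* (-0.08296), after quantile normalization, *IGFBP5* (-0.4264), *INSR* (-0.1253), *IRS2* (-0.1538), *HTRA1* (-0.1849) and *IGF2BP3* (-0.06933), and with pgEpiSCs-high alone as pgEpiSCs, *IGFBP5* (-0.3304) and *HTRA1* (-0.2562). In pgEpiSCs-MCs, *INSRR* against pgEpiSCs was -0.3895 after quantile normalization, and *IGFBP4* against MPC-Dif was -0.07018 with median-of-ratios scaling. The rises of *IGFBP4*, *IGFBP5* and *IGFBP7* in pgEpiSCs-MCs and in MPC-Dif against pgEpiSCs, and that of *IGFBP2* in pgEpiSCs-MCs, kept direction and call in every alternative run.

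Counts over all genes moved more. For pgEpiSCs-high against pgEpiSCs-Low, 1250 genes were higher, but 1931 with median-of-ratios scaling and 778 with only the compared groups fitted, and 2345 were lower, but 1163 with only those groups. For pgEpiSCs-MPCs against pgEpiSCs, 7104 were higher, but 4598 after quantile normalization, and 3197 were lower, but 4891 with median-of-ratios scaling and 5314 after quantile normalization. The lower genes as a share of called genes moved by over 10 points in 4 comparisons. It was 65.2%, but 46.1% with median-of-ratios scaling, between passages, and after quantile normalization it was 53.6% in place of 31.0% in pgEpiSCs-MPCs against pgEpiSCs, 55.9% in place of 37.8% in pgEpiSCs-MCs against pgEpiSCs, and 54.2% in place of 36.8% in pgEpiSCs-MCs against MPC-Dif. The cause was not tested.

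Of 24 same-numbered pairs of libraries across groups, 1 had a correlation of deviations above 0.1 (range -0.151 to 0.126). Deviations from means of so few libraries cannot show whether replicate numbers pair the libraries or mark a shared batch. With the replicate block, 1137 genes were higher and 2084 lower between passages, and the counts of called genes of the IGF system were those of the fit without it. Leaving out 1 library changed no count by over 1.5 times.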
